A study of Danio rerio with 4 samples.

Results

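Eyes of sibling zebrafish embryos were compared at 36hpf and 72hpf by the rank of each gene within its own sample. The comparison used the sibling eyes of both stages, 2 of the 4 samples of the study, and the eyes labelled mutant at the same stages were set beside it. Samples were 1 pool of dissected whole eyes per genotype and stage, from embryos of the TL strain aged 36 or 72 hours post-fertilization (hpf). Siblings were phenotypically wild-type embryos, and the mutants were *tet2*-/-;*tet3*-/- embryos, with frameshift alleles of both genes. Both came from crosses of adults heterozygous for both genes, so a sibling pool can hold carriers of either allele. The 36hpf values are read counts and the 72hpf values are FPKM (fragments scaled for transcript length and for the number of mapped fragments), made on another sequencer with other software. Stage cannot therefore be told apart from run, pipeline and unit, there is 1 sample per stage and genotype, and no test or p-value could be had.

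Genes were matched by a symbol that stood once in each table, which gave 26630 genes. Of these, 24203 had a value above 0 in sibling eyes of either stage and were ranked, and the 2427 at 0 in both were left out. Each gene received a percentile within each sample, from near 0 for the lowest value to near 100 for the highest, and its shift is the 72hpf percentile less the 36hpf percentile. A gene was called risen or fallen only when it moved by 25 percentile points or more, because the change of unit also moves ranks. The threshold does not remove that effect. Transcript lengths were not used, so the part of the unit in any single call was not tested. Reads at 36hpf are the sum of the 2 whole counts behind each deposited mean.

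In the zebrafish retina, dividing progenitor cells of the optic cup leave the cell cycle in a wave that starts near the optic nerve and spreads outward. Ganglion cells are born first, followed by amacrine, horizontal and cone cells, bipolar cells, rods and Müller glia, and Notch signalling keeps neighbouring cells in the progenitor state. Maturing photoreceptors then build a membrane-filled outer segment and the proteins of phototransduction, in which an opsin activates transducin, transducin activates a phosphodiesterase, cyclic GMP is broken down and cation channels close. Neurons at the same time build synapses, and the lens fills its fibre cells with crystallins. The gene lists follow these steps, and each is described by its counts beside those of all ranked genes.

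Of the 24203 ranked genes, 2137 rose and 1549 fell, 8.83% and 6.40%, so about 1 gene in 7 was called. The genes that rose went from a median percentile of 30.1 at 36hpf to 75.4 at 72hpf, and the genes that fell went from 70.5 to 34.9. The median shift of all genes was -1.57 points. Across genes, which are not independent replicates, the percentiles of the stages had a Spearman correlation of 0.781. With the stricter threshold of 40 points, 865 genes (3.57%) rose and 312 (1.29%) fell. Among the called genes of both directions, 231 of the rises and 51 of the falls belonged to one of the 33 gene lists, which together held 1027 ranked genes.

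The size of a shift depends on where a gene starts. A gene above the percentile of 75 at 36hpf had no room to rise by 25 points, and one below 25 had no room to fall. Among genes up to the percentile of 25 at 36hpf 14.7% rose, while of those between 75 and 90 13.5% fell, with a median shift of -6.45. Between 90 and 95, 9.67% fell (median shift -5.42), and above 95 3.88% fell. A change of 2-fold was worth 7.78 points of the 36hpf scale and 12.4 of the 72hpf scale at the middle of the ranks, and 2.81 and 2.69 points at the percentile of 95. At the percentile of 10 it was worth 4.35 and 1.55 points. Equal shifts near either end of the ranking therefore stand for larger fold-changes than in the middle. Each list is read against these shares.

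**Figure D1:**
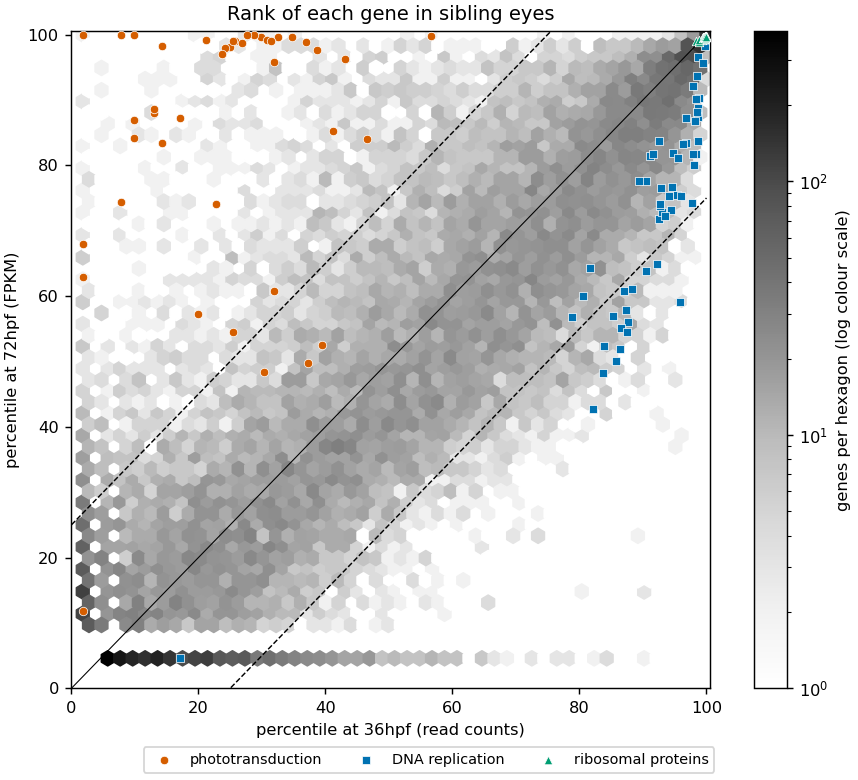
Percentile of every ranked gene in sibling eyes at 36hpf (horizontal axis, read counts) and at 72hpf (vertical axis, FPKM), with the density of all genes in grey on a log colour scale and 3 gene lists as points. Dashed lines mark a shift of 25 points. Phototransduction genes (circles) start at percentiles up to 56.6 (*opn1sw2*) and end mostly near the top, DNA replication genes (squares) start high, apart from *dut*, and end lower, and ribosomal protein genes (triangles) stay at the top.

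The counts behind the 36hpf values and the gene models were examined first. Both counts were recovered for 23480 genes, as a larger and a smaller count of each gene. Percentiles by the larger and by the smaller count differed by a median of 0.875 points and by at most 17.97. No gene thus differed by 25 points. Because the counts were sorted gene by gene, this difference does not measure how well 2 fixed counts repeat each other. The sources used here do not state what the counts stand for. At 72hpf 25.9% of the ranked genes shared their listed locus with another gene, and they made up 28.97% of the rises and 43.96% of the falls. Reads of such overlapping genes may be divided in another way in each table, so the larger lists are also given for genes with a locus of their own, of which 17940 were ranked and 8.46% rose and 4.84% fell. The depth at 36hpf was 88875538 reads in sibling and 106912677 in mutant-labelled eyes, and the 72hpf table carries no depth. A read total is stated only for both libraries of the later stage together, so no counting limits were set for FPKM.

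*tet2*, a dioxygenase that oxidises 5-methylcytosine and is targeted in the mutants, had 9646 reads at 36hpf in sibling eyes and 12459 in the library labelled mutant, and an FPKM of 33.6 and 34.1 at 72hpf. *tet3*, the second targeted gene, had 8381 and 8611 reads and an FPKM of 55.9 and 37.9. *tet2* was thus not lower in the mutant libraries at either stage. The paper reports that RT-PCR of whole mutant embryos, at stages other than those sequenced, found no *tet2* transcript. The eye values given here do not show such a loss. The paper also states that RNA-seq of mutants at the earlier stage found no wild-type transcript of either gene. In mutant embryos it reports the loss of *tet3* protein and of almost all hydroxymethylcytosine, the oxidised base. The label gives a genotype, and values summed over a whole gene do not tell which allele they come from. Those libraries are called mutant-labelled. The libraries did differ at 72hpf in other genes, among them the opsin gene *opn1sw1* (3591 FPKM in sibling and 32.1 in mutant-labelled eyes) and the cardiac peptide gene *nppa* (0.151 and 12.1). In sibling eyes *tet2* (chromosome 1, 25662645 to 25693594, GRCz10) stood at percentiles of 93.3 and 91.4, and *tet3* (chromosome 5, 13809698 to 13826742) at 92.3 and 95.1. The third family member, *tet1*, had 2042 reads and an FPKM of 4.96, with a shift of -15.97 at a shared locus.

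The tissue label was checked against genes of the eye. The retinal progenitor and eye field genes *rx1* (25134 reads, 81.7 FPKM) and *pax6a* (47348 reads, 199.8 FPKM) were high at both stages, and so was the lens gene *cryba4* (57632 reads, 4838 FPKM). Transcripts of the skin keratin *krt4* were also plentiful, at 110955 reads and 1021 FPKM. Which cells of the dissected tissue they came from was not tested. Genes of this check and others beyond the rule for named genes were chosen after their values were seen.

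Phototransduction genes made the largest move of any list. Of the 51 genes listed, 44 were matched and 43 ranked, of which 39 rose and 0 fell, where 8.83% of all genes rose. Their median percentile was 25.4 at 36hpf and 97.00 at 72hpf, and the median shift was 68.3 points. Among the 33 with a locus of their own, 29 rose (median 67.2). The list held 0.00249% of the matched reads at 36hpf and 3.99% of the matched FPKM at 72hpf. In a whole-eye pool, more cells of a type and more RNA per cell cannot be told apart.

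Visual pigments, the opsins that absorb light, went from traces to the top of the ranking. *opn1sw1*, the ultraviolet cone opsin (chromosome 4, 13578815 to 13581499), had 0 reads at 36hpf, which allows up to 3 reads at this depth, and an FPKM of 3591 at 72hpf, where it was gene number 10 of the whole ranking. *rho*, the rod opsin (chromosome 8, 53668766 to 53670321), had 2 reads, a percentile of 7.79 with exact Poisson 95% limits of 3.58 to 15.8, and reached 2175 FPKM. Both stood among the lowest genes of the eye at the earlier stage. The red opsin *opn1lw2* went from 35 reads to 3403 FPKM, and the green opsin *opn1mw1* from 31 reads to 2093 FPKM. The blue opsin *opn1sw2* had the most reads of the opsins at 36hpf (532, not scaled for length), and with 1607 FPKM it was below the other cone opsins just named at 72hpf. Between copies of an opsin the levels differed widely at 72hpf: the second red opsin *opn1lw1* reached 17.6 FPKM, the second green opsin *opn1mw2* 25.6, and *opn1mw4* 0.0382, the one ranked pigment that was not called (shift 10.1). Near-identical copies such as these can share reads, so their split is uncertain. *opn1mw3* was at 0 in both samples.

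All 7 transducin subunits rose, with a median shift of 71.9 and shifts from 61.95 to 89.99. The alpha subunits *gnat1* of rods and *gnat2* of cones had 23 and 66 reads at 36hpf and 134 and 893 FPKM at 72hpf. The cone gamma subunit *gngt2b* went from 3 reads to 1801 FPKM, the largest shift of the group (89.99 points). The cone forms named thus stood above the rod forms at 72hpf on the per-length scale, also with *gnb3b* at 858 FPKM and the rod gamma subunit *gngt1* at 194. Downstream, 4 of 4 phosphodiesterase subunits rose. The inhibitory cone subunit *pde6h* (6 reads, then 148 FPKM) and the cone catalytic subunit *pde6c* (24 reads, then 251 FPKM) ended above the rod catalytic subunits *pde6a* and *pde6b*, which had 128 and 212 reads and reached 19.7 and 18.1 FPKM. *pde6h* and *pde6c* lie at shared loci.

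The cyclic GMP-gated channels and the exchangers that clear calcium rose in 7 of 7 cases, to a median percentile of 84.2 where that of the visual pigments was 99.9. The cone channel subunit *cnga3a* went from 50 reads to 62.6 FPKM, and the rod channel subunits *cnga1* and *cngb1a* from 2 and 5 reads to 10.7 and 24.4 FPKM. Of the proteins that end the light response, 9 of 10 rose, with a median shift of 69.3. The cone arrestin *arr3a* reached 922 FPKM from 53 reads, *arr3b* 321 FPKM from 15 reads, and recoverin *rcvrna*, a calcium sensor, 319.6 FPKM from 44 reads. These end points lie within the range of the transducin subunits just named. The exception was the opsin kinase *grk7b* at 105 reads and 3.47 FPKM (shift 13.03), whose paralog *grk7a* rose from 21 reads to 127 FPKM.

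The guanylate cyclase *gucy2f* and the calcium-binding proteins that activate it had the lowest median percentile at 72hpf of the roles in the pathway, 62.8, and 5 of 7 rose. *guca1g*, at a shared locus, reached 22.4 FPKM and *guca1c* 10.6 FPKM, while *gucy2f* reached 5.45 FPKM from 50 reads. The activators *guca1a* and *guca1e* had shifts of 12.4 and 18.05 and were not called. The order of the roles by median percentile at 72hpf was visual pigments (99.9), transducin (99.1), shut-off proteins (97.8), phosphodiesterase (91.8), channels and exchangers (84.2) and cyclases with their activators. With 1 library per stage, the order has no replicate check.

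**Figure D2:**
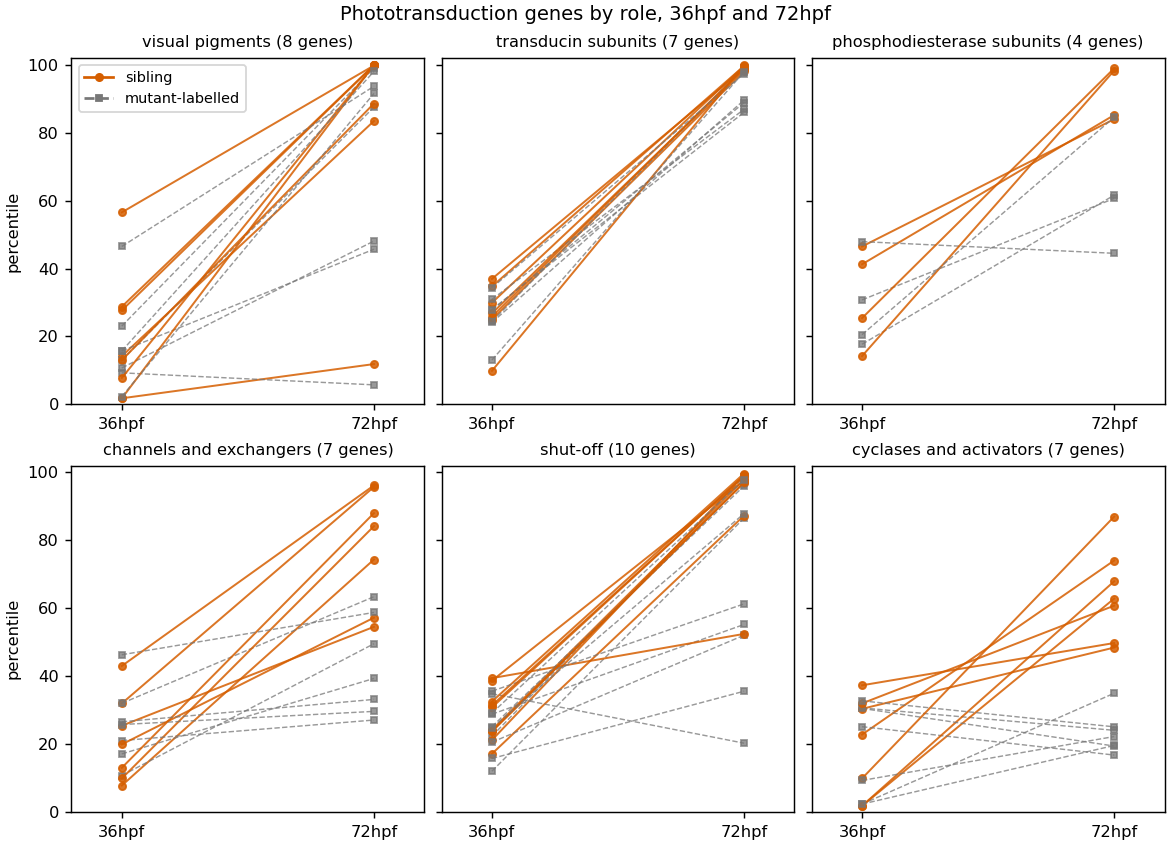
Percentile at 36hpf and 72hpf of each ranked phototransduction gene, in 6 panels by role. Solid lines with circles are sibling eyes and dashed lines with squares are mutant-labelled eyes. Sibling lines end near the top for pigments, transducin and shut-off proteins and lower for cyclases and activators, where the median went to 62.8 in sibling and 22.2 in mutant-labelled eyes.

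Genes for the structure of the outer segment also rose, 17 of 27 with none fallen (median shift 52.4). The disc rim protein genes *rom1a* and *prph2a* went from 2 and 44 reads to 72.4 and 187 FPKM. *impg2a* and *impg1a*, which encode proteoglycans of the matrix around photoreceptors, went from 6 and 14 reads to 41.2 and 58.5 FPKM. *rs1a*, for retinoschisin, a secreted adhesion protein, reached 660.2 FPKM from 63 reads. Genes of the list that serve cilia in general were already well expressed at 36hpf and were not called: *ift88* and *ift172* of ciliary transport stood at percentiles of 77.1 and 83.4 and then 79.3 and 70.2, and *nphp4* of the ciliary base had a shift of -22.01.

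The visual cycle regenerates the chromophore of the opsins, partly in the pigment epithelium. Here 6 of 19 genes rose (median shift 11.2), or 2 of 10 with a locus of their own. The photoreceptor genes *rdh8a*, a retinol dehydrogenase, and *abca4b*, a flippase of outer segment discs, rose to 38.6 and 39.4 FPKM from 358 and 165 reads. The pigment epithelium genes *rpe65a* and *rlbp1a* already stood at percentiles of 77.7 and 74.6 at 36hpf and reached 97.5 and 97.9, below the threshold.

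Transcription factors of photoreceptors started higher in rank than the phototransduction genes. The median percentile of the 13 genes was 65.8 at 36hpf and 95.97 at 72hpf, and 7 rose, all those with room to do so. The early factors *otx2*, *neurod1*, *thrb* and *tbx2b* stood at 96.2, 90.99, 92.8 and 96.7 at 36hpf and at 97.6, 99.2, 95.97 and 96.8 at 72hpf. The later factors *nr2e3* and *nrl* of rods had 415 and 169 reads and reached 43.4 and 11.4 FPKM. *six7*, needed for green cone opsin expression in zebrafish, went from 524 reads to 103 FPKM, and *samd7*, a repressor of photoreceptors, from 122 reads to 44.98 FPKM. The largest shift of the list was that of *foxq2* (75.97), a factor of blue cones in zebrafish, with 0 reads and then 12.8 FPKM.

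Bipolar cells carry signals from photoreceptors to the inner retina. Of 20 genes 11 rose and none fell (median shift 41.8), or 8 of 12 with a locus of their own (median 43.3). *nyx* and *lrit3a*, which encode leucine-rich repeat proteins of the ON bipolar synapse, went from 4 and 46 reads to 18.8 and 19.5 FPKM. *cabp2a* and *cabp5b*, calcium-binding proteins, went from 5 and 9 reads to 37.8 and 5.52 FPKM. These genes had low ranks at 36hpf, and so did the bipolar transcription factor *bhlhe23*, at a shared locus, which rose from a percentile of 30.1 to 97.2. The bipolar transcription factor *vsx1* stood at 82.4 at 36hpf and 99.3 at 72hpf and the receptor *grm6b* at 67.5 and 90.1, neither called.

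Synaptic vesicle and release genes rose in 32 of 43 cases, with a median shift of 33.9, and 28 of 38 with a locus of their own rose. *cplx4a*, a complexin of ribbon synapses at a shared locus, went from 2 reads to 233 FPKM, and *slc17a7a*, a vesicular glutamate transporter also at a shared locus, from 79 reads to 123 FPKM. *sv2ba*, a vesicle protein, and *rab3ab*, a vesicle GTPase, went from 47 and 41 reads to 161 and 51.2 FPKM. Some members of the list stood higher at 36hpf: *snap25b* of the fusion machinery went from 493 reads to 260.0 FPKM and synaptophysin *sypb* from 762 to 394, percentiles of 55.6 and 61.1 before shifts of 43.4 and 38.1. The ribbon gene *ctbp2a* stood at 88.2 and 98.3. *cplx4b*, *syt1b* and *stx1a* were listed at 0 at 72hpf after 6, 23 and 29 reads.

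Among genes of inhibitory transmission 16 of 27 rose and none fell (median shift 36.6). The GABA receptor subunits *gabrr1* and *gabrr3a* of the rho class rose from 12 and 37 reads to 12.4 and 19.5 FPKM, and the glycine receptor subunit *glrbb* from 221 to 31.96. The GABA-synthesising enzyme *gad1b* rose from 489 reads to 71.4 FPKM, and *gad2* had a shift of 19.9, short of the threshold. The receptor subunits named had shifts of 57.9, 55.9 and 44.1, above the 40.9 of *gad1b*. Of 23 glutamate receptor genes 8 rose (median 17.9), or 4 of 13 with a locus of their own. The kainate receptor subunit *grik1b* went from 17 reads to 45.2 FPKM and the obligate NMDA receptor subunit *grin1b* from 401 to 125, while *grik4* had a shift of -21.2.

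Amacrine and horizontal cell genes rose in 6 of 18 cases (median shift 16.9). The calcium-binding protein genes *pvalb6*, *calb2b* and *calb2a* went from 21, 64 and 94 reads to 92.3, 420.1 and 80.4 FPKM, and *chata*, for the enzyme that makes acetylcholine, from 7 to 6.05. The factors *barhl2* and *prox1a* rose by 35.8 and 28.8 points. *foxn4*, which acts in progenitors of these cells, had 35047 reads and 30.6 FPKM, and its shift of -7.87 near the top of the scale was not called.

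Ganglion cells are the earliest neurons, and 12 of 29 of their genes rose (median shift 17.7). The POU factors *pou4f2*, *pou4f1* and *pou4f3* went from 136, 28 and 0 reads to 43.05, 11.6 and 12.9 FPKM. *isl2b*, a marker of these cells in zebrafish, went from 93 reads to 35.96 FPKM, and *irx4a* from 52 to 16.7. The POU factors thus stood at percentiles of 41.9, 26.8 and 1.79 at 36hpf. The RNA-binding protein genes *elavl3* of neurons in general and *rbpms2b* of ganglion cells were high by then, at 92.8 and 88.6, and ended at 98.5 and 98.2. *atoh7*, which starts ganglion cell fate in progenitors, had 13794 reads and 30.5 FPKM and a shift of -5.05.

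Müller glia genes split, 4 of 18 rising and 3 falling (median shift -0.246). The glutamate transporter *slc1a2a* rose from 7 reads to 47.01 FPKM, the carbonic anhydrase *cahz* from 353 to 35.6 and the water channel *aqp4* from 6 to 8.14. The remaining rise was that of *fabp7b*, a fatty acid binding protein gene, from 20 reads to 3.68 FPKM. The genes that fell were *sox9b* from a percentile of 97.4 to 65.4 (at a shared locus), *gfap* from 79.3 to 51.2 and *slc1a3a* from 82.3 to 56.2. Glutamine synthetase *glula* had a shift of 22.1.

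Retinal progenitor and eye field genes had a median shift of 0.306 over 42 genes, with 9 risen and 1 fallen. Of the rises 7 lay at shared loci, and over the 30 genes with a locus of their own 2 rose and 1 fell. *sox2*, a factor of neural progenitors, was listed with 19 reads at 36hpf and 52.4 FPKM at 72hpf, and *mab21l1* and *sox11b* with 77 and 16 reads and 142 and 47.5 FPKM. In mutant-labelled eyes *sox2* had 20 reads and 57.5 FPKM, a shift of 73.7 beside 71.5 in siblings. These genes had few reads in both 36hpf libraries unlike *rx1* and *pax6a*, whose counts are given above, and the part of the counting at their shared loci was not tested. The progenitor genes *rx1* and *rx2* had shifts of -1.004 and 2.98. *aldh1a3*, which makes retinoic acid in the ventral retina, fell from 86.7 to 59.3, and the neurogenic factor *ascl1a* stood at 90.3 and 72.6.

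Genes of the Notch pathway moved down in rank with 1 exception. Of 33 ranked genes 32 had a lower percentile at 72hpf, 4 fell by 25 points or more and 1 rose, and the median shift was -14.5 where that of all genes was -1.57. Of all genes 6.40% fell, and 4 in 33 is a small count beside it. The list is therefore described by its direction more than by its calls. It began at a median percentile of 88.9, and 8 of its 33 genes were low enough to rise by 25 points. All genes between 75 and 90 at 36hpf had a median shift of -6.45, with 13.5% fallen. The ligands *dla*, *dlb* and *dld* went from 98.2, 97.8 and 96.9 to 77.5, 76.1 and 67.3, and of these only *dld* fell by the threshold. The receptors *notch1a* and *notch1b* went from 99.01 and 98.2 to 91.9 and 77.1, and the glycosyltransferase *lfng* from 98.9 to 91.2. The ligand *jag1b*, the co-activator *maml1* and the target *her4.1* were the other falls, from 88.9, 88.4 and 81.3 to 54.1, 51.4 and 53.7. *her4.3* rose from 2 reads to 2.14 FPKM. It and *her4.1* lie in a cluster of near-identical *her4* copies on chromosome 23 whose reads can be split between them, so the values of both are uncertain.

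Cell cycle genes moved the same way. All 56 DNA replication genes had a lower percentile at 72hpf, 15 fell and none rose, and the median shift was -17.99. Of 69 genes of mitosis and the kinetochore 68 went down, 15 fell and none rose (median -17.5). All but 1 of the replication genes and all but 3 of the mitosis genes began too high to rise by 25 points. Their median percentiles at 36hpf were 93.3 and 94.7, and all genes between 90 and 95 had a median shift of -5.42 with 9.67% fallen. Among genes with a locus of their own 11 of 42 and 13 of 54 fell.

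Within replication, the largest falls included genes that license and fire origins. *mcm10*, which helps to activate the helicase, fell from a percentile of 82.2 (3345 reads) to 42.8 (1.71 FPKM). The origin recognition gene *orc1* fell from 85.7 to 50.1, *cdc45* of the helicase from 87.7 to 56.03, and the catalytic subunit of DNA polymerase epsilon, *pole*, from 95.8 to 59.1. Abundant replication genes kept high ranks, with the sliding clamp *pcna* at 182019 reads and then 138 FPKM, *mcm7* at 36588 and 74.8, and ribonucleotide reductase *rrm1* at 88093 and 61.3. In mitosis, *cenpf* of the kinetochore fell by 36.8 points, *kif20ba*, a kinesin, by 35.7, *sgol1*, which protects centromere cohesion, by 35.2 and *ccne1*, the G1/S cyclin, by 33.4. The proliferation marker *mki67* went from 156253 reads to 47.9 FPKM and the kinase *cdk1* from 20472 to 31.1, shifts of -5.53 and -6.48 near the top of the ranking. The list shares of matched reads and matched FPKM went from 1.22% to 0.186% for replication and from 1.47% to 0.220% for mitosis, but reads are not scaled for gene length and FPKM is.

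**Figure D3:**
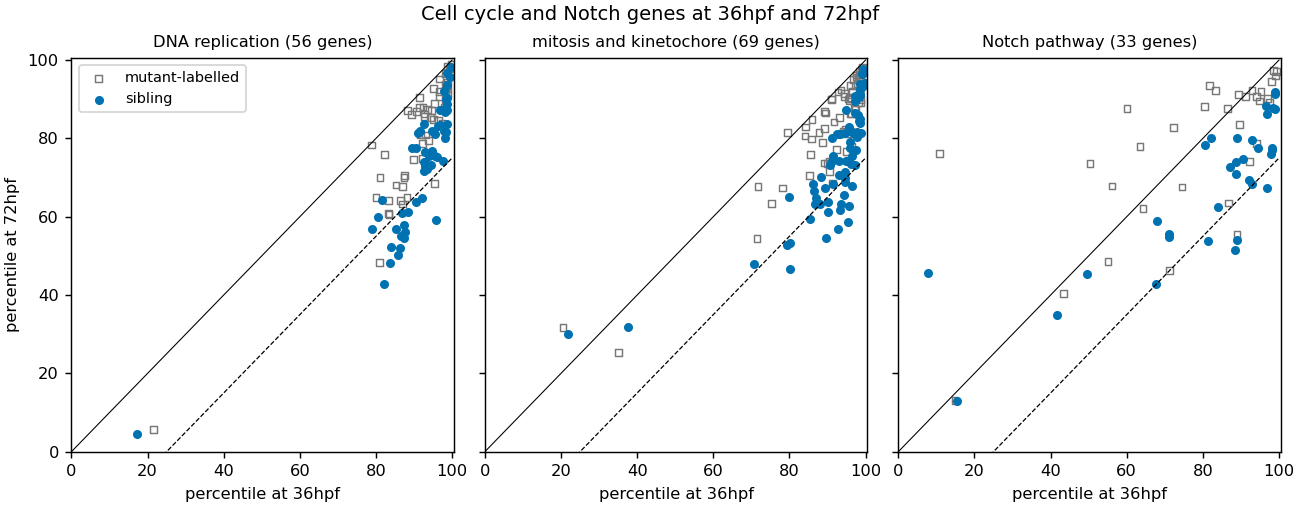
Percentile at 36hpf (horizontal axis) against 72hpf (vertical axis) for DNA replication, mitosis and Notch genes, with sibling eyes as filled circles and mutant-labelled eyes as open squares. The solid line marks an equal rank and the dashed line a fall of 25 points. In sibling eyes all 56 replication genes, 68 of 69 mitosis genes and 32 of 33 Notch genes lie below the solid line, further from it than in mutant-labelled eyes by their medians.

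Chromatin genes as a list had a median shift of -0.587, with 3 of 38 risen and 3 fallen. The falls were *dnmt3bb.2* and *dnmt3bb.3*, de novo DNA methyltransferases at shared loci (94.02 to 49.7 and 83.5 to 55.8), and *suz12a*, a subunit of Polycomb repressive complex 2 (94.7 to 68.8). Other members of that complex had shifts of -18.4 (*ezh2*) and -15.4 (*eed*). Of the maintenance machinery counted with replication, *dnmt1* and *uhrf1* had shifts of -14.9 and -16.02. The rises were the linker histone genes *h1fx* and *h1f0*, both at shared loci and with 10 and 29 reads at 36hpf (9 and 45 in mutant-labelled eyes), and *hmga1b*, an AT-hook protein gene, with 665 reads and 155 FPKM.

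Ribosomal protein and splicing genes stood near the top at both stages, where little room was left. The 56 ribosomal protein genes had shifts between -0.397 and 0.731, and the 50 splicing factor genes had a median shift of -0.880, with no call in either list. The lowest splicing shifts were those of *ptbp1a* (-12.1), a polypyrimidine tract protein that holds back neuronal exons, and of *prpf4* (-11.4) of the spliceosome. In a housekeeping list *gusb* fell by 38.1 points and *ubb*, at a shared locus, rose by 29.7.

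Metabolic genes moved by group. Nuclear genes of oxidative phosphorylation went up in rank in 52 of 57 cases by small amounts (median shift 3.57, 3 risen), and the list began at a median percentile of 92.3. Glycolysis genes had a median shift of 13.5, with 7 of 34 risen. The glucose transporter *slc2a1a* went from 13 reads to 21.6 FPKM, the lactate dehydrogenase *ldhbb* from 50 to 42.9, and the monocarboxylate transporter *slc16a3* from 148 to 58.8. The neuronal enolase *eno2* rose from a percentile of 39.03 to 94.05. The paralogs that carried most reads at 36hpf, *ldhba* and *aldoaa*, had shifts of 0.657 and 0.897. *gpib*, a glucose phosphate isomerase gene, fell by 69.8 points, with an FPKM of 0.132 in sibling and 0.429 in mutant-labelled eyes at a locus it shares.

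Clock genes rose in 10 of 26 cases and none fell (median shift 13.4). The nuclear receptor *nr1d1* of the repressive arm of the clock went from 95 reads to 50.9 FPKM, the output factor *dbpa* from 104 to 35.8, and *aanat1*, a melatonin synthesis enzyme of the retina, from 8 to 6.03. The activators *clockb* and *arntl1a* had shifts of 12.5 and 7.30. The paper states that embryos were incubated in the dark. The sources used here do not state the hour of dissection, and the part of light or hour in these shifts was not tested.

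Lens crystallins were already high in rank at 36hpf. Of 55 ranked crystallin genes 13 rose and none fell, 27 of the 55 had room to rise, and the median shift was 10.3. The list took 1.23% of matched reads at 36hpf and 15.12% of matched FPKM at 72hpf. Beta-crystallins were the highest of the list in FPKM, with *crybb1* (107203 reads, then 6747 FPKM, order 2 at 72hpf), *cryba4* (57632 and 4838) and *crybb1l1* (175528 and 4101). The rises were mainly gamma-M crystallins of fibre cells: *crygm2d11* went from 50 reads to 777 FPKM, *crygm2d16* from 526 to 1611 and *crygm2d6* from 401 to 690.5. These are near-identical copies, 30 of the crystallins lie at shared loci, and the split of reads among them is uncertain. Alpha-crystallin *cryaa* had 2849 reads and 204 FPKM (shift 18.8).

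Lens fibre and regulator genes had a median shift of 1.23, with 4 of 23 risen. *hsf4*, a heat shock factor of fibre differentiation, went from 283 reads to 16.6 FPKM, and *lim2.5*, a fibre membrane protein gene at a shared locus, from 799 to 155. *foxe3* and *pitx3*, factors of the early lens, had shifts of -1.33 and -11.4, and the intermediate filament gene *bfsp2* went from 88.00 to 99.1. The largest downward shifts of the list were those of *fabp11b*, a fatty acid binding protein gene (-21.4), and *caprin2*, an RNA granule gene (-17.7), and 9 of the 23 genes shifted below 0.

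Melanin pigment genes went down in rank in 15 of 18 cases (median shift -8.09), and 3 fell, where 6.40% of all genes fell. The list began at a median percentile of 86.8. All genes between 75 and 90 at 36hpf had a median shift of -6.45 with 13.5% fallen, so the move of the list is close to theirs. *mitfa*, the master factor of melanophores, fell from 79.4 (2729 reads) to 37.5 (1.07 FPKM), *oca2*, a melanosome transporter, from 90.6 to 58.7, and *slc24a5*, the golden exchanger, from 82.97 to 54.8. The melanosome matrix and enzyme genes *pmela*, *dct* and *tyrp1b* stood at 99.3, 99.1 and 99.2 at 36hpf and at 95.5, 94.5 and 97.9 at 72hpf. The receptor *mc1r* rose from 23 reads to 3.21 FPKM.

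**Figure D4:**
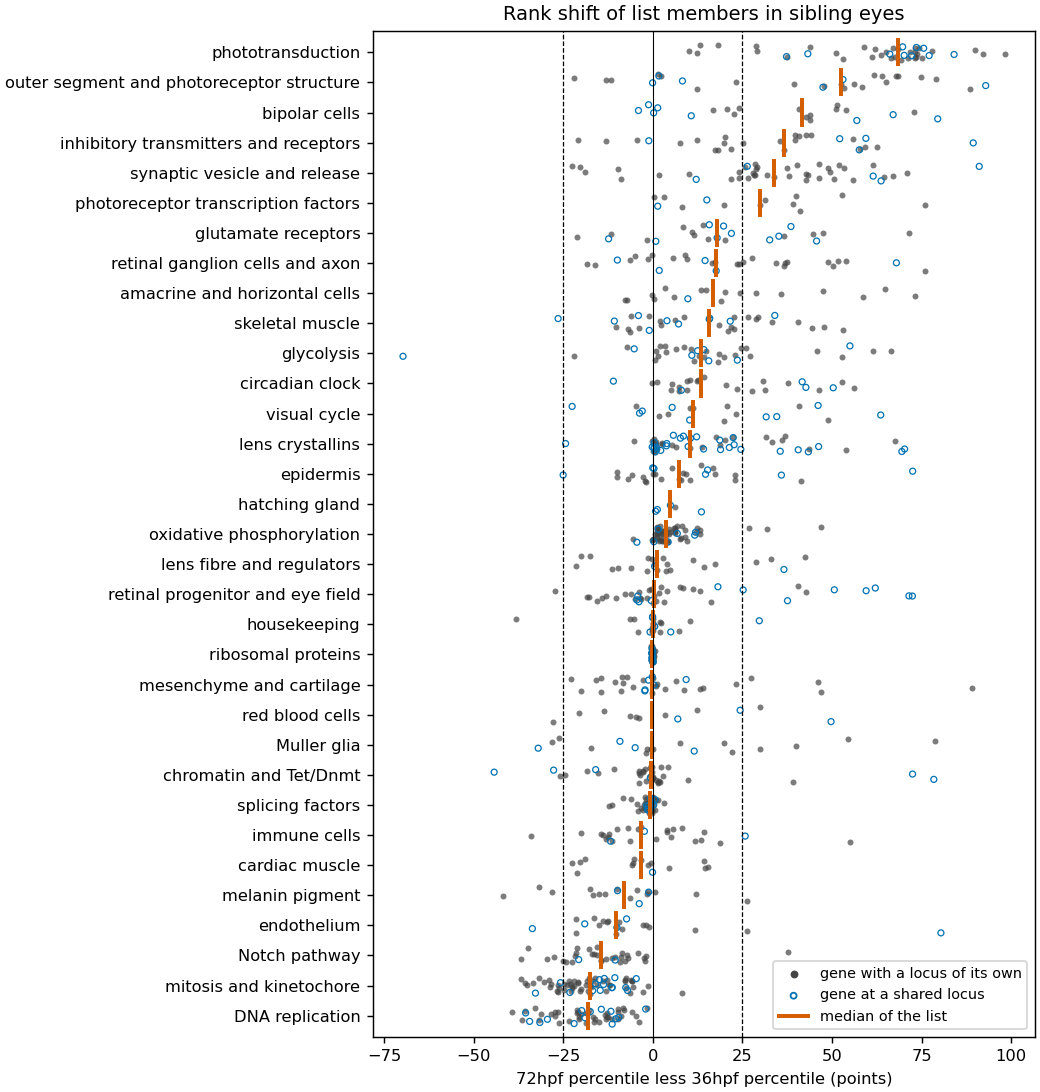
Shift of every ranked member of 33 gene lists in sibling eyes, in percentile points, with lists ordered by their median (orange bar). Grey points are genes with a locus of their own in the 72hpf table and open blue points are genes at a shared locus. Dashed lines mark 25 points in either direction. Phototransduction has the highest median (68.3) and DNA replication the lowest (-17.99).

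Tissues other than retina and lens were checked by lists of their own. Skeletal muscle genes rose in 9 of 33 cases, from 36hpf percentiles of 33.1 or lower, with *mylpfa*, a myosin light chain, at 7 reads and 8.10 FPKM and *actc1b*, an actin, at 56 and 15.05, and the list held 0.0165% of matched FPKM. Cardiac muscle genes were low in rank at 72hpf, with *myl7* and *cmlc1* at 0 FPKM and a median shift of -3.37. Red blood cell genes had 2 rises and 1 fall, with the embryonic globin *hbbe3* at 4350 reads and 4.63 FPKM and *hbbe2*, at a shared locus, at 112 and 28.3. Endothelial genes had a median shift of -10.2, with *kdrl* at 79.3 and 57.97. Immune genes had a median shift of -3.20 and hatching gland genes one of 4.90, with *he1a* at 43 reads and 0.868 FPKM. The part of such tissue in the shifts of retinal genes was not tested.

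Epidermal genes had a median shift of 7.23 over 29 genes, with 3 risen and 1 fallen. The keratin *krt91*, at a shared locus, rose from 833 reads to 139.7 FPKM and *krt15* from 37 to 8.94. The keratin *krt92* fell by 25.05 points at a shared locus. Mesenchyme and cartilage genes had a median shift of -0.217, with 4 of 32 risen, none fallen and 17 shifted below 0. Of all genes 8.83% rose, and 4 in 32 is a small count beside it, so no theme is read from the rises. They were the cartilage matrix genes *matn1* (matrilin, 1 read and then 48.1 FPKM), *col11a2* (45 and 12.9), *acana* (aggrecan, 3 and 4.21) and *col9a1a* (692 and 22.7). The fibroblast collagens *col1a1a* and *col1a2* had shifts of -0.149 and 0.355.

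The tops of the rankings also changed. Of the 15 highest genes of each stage 4 were shared, the mitochondrial genes *mt-co1*, *mt-co2*, *mt-co3* and *mt-atp6*, and of the top 100 genes 49 were shared. At 36hpf the 15 highest included translation and growth genes such as *eef1a1l1* (1000140 reads), *hmga1a* (980675 reads) and *hsp90ab1* (494287 reads). At 72hpf they included 8 crystallin genes and the opsins *opn1sw1* and *opn1lw2*. In the top 100 the ribosomal protein genes went from 40 to 21, crystallins from 2 to 31, and phototransduction genes from 0 to 9. FPKM divides by transcript length and reads do not, and the part of this in the rank of short transcripts such as crystallins was not tested. In 10 equal bins of genes by the length of a locus of their own, the median shift ran from 1.29 in the shortest bin to -3.45 in the eighth. Locus length is a genomic span and not the transcript length, so the bins do not measure the effect of FPKM scaling.

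Among named genes with an FPKM of at least 10, the 15 largest rises held photoreceptor and synaptic genes, and 9 of them lay at shared loci. Beside *opn1sw1*, *rho*, *gngt2b*, *rom1a* and *rom1b* they held *RGS9BP*, the anchor of the protein that shuts off transducin (0 reads, then 82.1 FPKM), *gabrr2a* and *cplx4a*. *dlg4b*, a postsynaptic scaffold, and *ompa*, an olfactory marker protein, went from 0 reads to 30.6 and 39.2 FPKM at shared loci. Restricted to genes with a locus of their own, the 15 added *CNGB3 (2 of 2)*, a cone channel subunit, from 4 reads to 46.2 FPKM, *neto2b*, a kainate receptor partner, from 2 to 25.3, *ckmt2a*, a mitochondrial creatine kinase, from 12 to 448, and *lenep*, a lens epithelium protein gene, from 6 to 47.6.

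The 15 largest falls among named genes with at least 500 mean reads were of another kind, since 14 of 15 lay at shared loci and 7 were listed at 0 FPKM. *ctsba*, for cathepsin B, had 8422 reads at 36hpf and 0 FPKM, with 11034 reads and 0 FPKM in mutant-labelled eyes, and *slc7a9*, an amino acid transporter gene, had 40798 reads and 0.486 FPKM beside 34113 and 0.358. Both genes were at or near 0 at 72hpf in each genotype. *selm* and *msrb1b*, selenoprotein genes with loci of their own, were listed at 0 FPKM in both genotypes over 72hpf loci of 81 and 120 bases. The part of gene models in these falls was not tested, and nothing is read from them about the eye.

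Restricted to genes with a locus of their own, the falls named other genes, which differed in kind. *lin28a*, an RNA-binding protein of early progenitors, fell from 1609 reads to 0.157 FPKM (71.5 to 20.05). The matrix genes *vcana* (versican), *fbn2a* (fibrillin) and *frem3* fell from 80.2, 65.1 and 77.3 to 18.2, 14.5 and 29.4, and the matrix protease *mmp9* from 79.8 to 32.8. The remaining falls included the ligand *wnt8b* (1266 reads, then 0.120 FPKM), the Wnt antagonist *sfrp5* (2308 and 0.757), the hypothalamic factor *otpb* (2239 and 0.710) and the muscle cadherin *cdh15* (3383 and 0.414). *plp1a*, a myelin proteolipid gene, had 3132 reads and 0.649 FPKM.

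Mutant-labelled eyes were ranked over the same genes, with the same pipelines and units at each stage as for siblings. These genes were picked by sibling values, so a gene with a value in mutant-labelled eyes alone could not be counted. There 1690 genes (6.98%) rose and 1119 (4.62%) fell. Of the 2137 sibling rises 1279 rose in mutant-labelled eyes too, 858 were not called there and none fell. Of the 1549 sibling falls 834 fell, 714 were not called and 1 rose. A further 410 genes rose and 285 fell in mutant-labelled eyes only by this threshold, which is not a test of a difference. Stages were closer in rank in mutant-labelled eyes (Spearman correlation 0.824 across genes) than in sibling eyes (0.781), and the genotypes were closer to each other at 36hpf (0.980) than at 72hpf (0.952).

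By list, the sibling median lay above the mutant-labelled one for most neuronal lists. Phototransduction had medians of 68.3 and 32.6, with 35 of 43 genes shifted further up in siblings, and bipolar cell genes 41.8 and 19.4. Within phototransduction the roles differed: transducin subunits had medians of 71.9 and 63.1, channels and exchangers 63.8 and 12.5, and cyclases with activators 51.3 and -6.59. At 72hpf 6 of the 7 transducin subunits stood at a higher percentile in sibling eyes, with medians of 99.1 and 89.6. The transducin gene *gngt2b* had 1801 FPKM in sibling and 117 in mutant-labelled eyes, and *gnb3a* had 297 and 301. Photoreceptor transcription factors had medians of 30.02 and 32.7. Ganglion cell genes had median shifts of 17.7 and 27.1, from median percentiles of 55.9 and 50.96 to 86.6 and 86.5. The list medians at 72hpf were thus close, with 14 of the 29 genes at a higher percentile in sibling eyes. Single genes of the list differed, such as *inaa* at a shared locus (21.8 FPKM in sibling and 2.07 in mutant-labelled eyes). In this list *atoh7* had 585 reads and 81.2 FPKM there.

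Cell cycle and Notch genes went down less in mutant-labelled eyes by their medians. DNA replication had medians of -17.99 and -8.07, mitosis -17.5 and -6.03, and Notch -14.5 and -2.32. Among replication and mitosis genes, 2 had the higher shift in siblings, *dut* (-12.5 and -15.7) and *cdc25d* (8.20 and -9.83). Crystallins rose further in mutant-labelled eyes (median 25.6, 28 risen) from a lower start, a median 36hpf percentile of 35.9 against 77.1. Skeletal muscle genes had medians of 15.7 in sibling and 32.9 in mutant-labelled eyes. Of the 15 cardiac muscle genes 0 rose in siblings and 9 in mutant-labelled eyes (medians -3.37 and 29.5). Epidermal genes had a median 36hpf percentile of 71.3 in sibling and 88.5 in mutant-labelled eyes. Of the 29, 2 stood higher in siblings at 36hpf and 7 at 72hpf. Levels of muscle, lens and epidermal genes thus differed between the genotypes, and their part in the other lists was not tested.

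**Figure D5:**
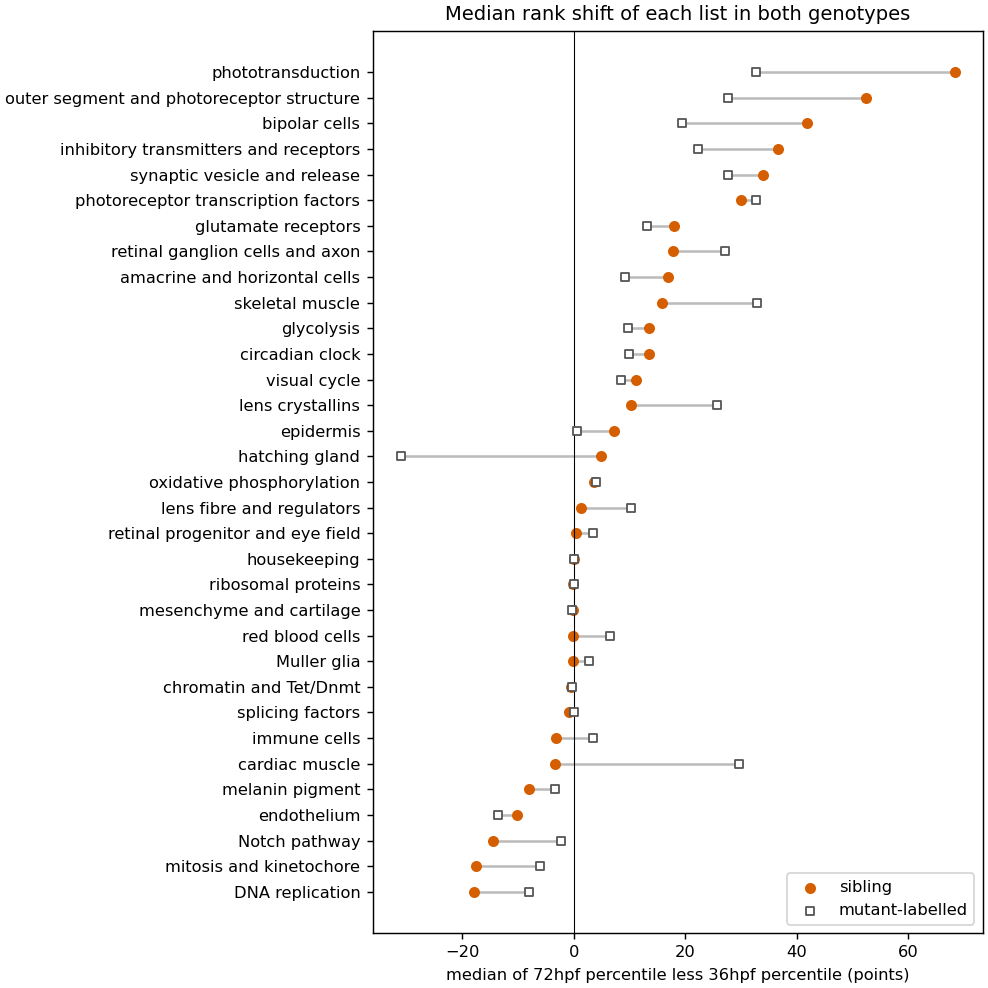
Median shift from 36hpf to 72hpf of each gene list in percentile points, with sibling eyes as filled circles and mutant-labelled eyes as open squares joined by a line. Lists are ordered by the sibling median. The sibling value is the higher for phototransduction (68.3 and 32.6) and the lower for DNA replication (-17.99 and -8.07), and cardiac muscle and hatching gland lie on opposite sides of 0.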

How the data were processed

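Poly-A RNA of 1 pool of dissected eyes per genotype and stage was sequenced by the authors, and their processing was taken as deposited. At 36hpf the authors mapped and counted reads with CLC Genomics Workbench, against GRCz10 per the submitters' notes. The deposited 36hpf values, headed as FPKM, are means of 2 whole numbers per gene and were treated as estimated counts scaled neither for depth nor for length. The deposited log2 columns are means of the log2 of the same counts and served to recover them, and the deposited score columns are signed ratios of the authors' own comparison and were not used. At 72hpf the authors aligned reads with TopHat and computed FPKM with Cufflinks, 1 value per genotype. A table of the authors' fold changes and p-values was not used. The sources used here name no annotation and no versions for the 72hpf values.

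Samples were grouped by their labelled genotype and stage. Symbols found once in each table were matched (26630 of 31388 and 31950 rows), and the 489 symbols on more than 1 row of the 72hpf table were left out. The percentile was 100 times the rank (average over ties) less 0.5, divided by the number of ranked genes, and counting limits are exact Poisson 95% limits of the 36hpf reads, which cover counting error only. A count of 0 was taken to allow 3 reads. A shared locus is a 72hpf position listed for more than 1 matched gene. Ranking was tested on simulated counts with planted changes. The simulation held no length scaling, shared loci or second pipeline, so it does not bear on the change of unit. With 1 sample per group no test was run.

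Members and lists were chosen with earlier results of these data known. Named genes were the 15 largest rises with an FPKM of at least 10, the 15 largest falls with at least 500 mean reads, up to 6 genes per list with the largest shifts and a value above 0 at both stages, the *tet* genes and the 15 highest genes of each sample, without gene IDs, names with a colon and clone names. The same rule over genes with a locus of their own was added after the data were seen. Coding lengths and sequences were not used here, and some genes that the rule names are not reported here. Alternatives were a value above 0 in both tables, a filter on low values, a threshold of 40 points and named genes only. The larger or the smaller 36hpf count of each gene was also ranked alone. Genes with a locus of their own and a correction for locus length were added after the data were seen. Python 3.11.15, numpy 2.4.6, pandas 2.3.3, scipy 1.17.1 and matplotlib 3.10.9 were used.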

Additional observations from a re-analysis of the deposited data

Results flagged for a closer look

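In the results listed here the shift from 36hpf to 72hpf had opposite signs in sibling and mutant-labelled eyes. Each genotype has 1 sample per stage, so none of these differences was tested. The median shift of cardiac muscle genes was -3.37 in sibling and 29.5 in mutant-labelled eyes, and the ventricular myosin gene *vmhcl* within it had -19.01 and 20.7, with 0.0633 and 3.81 FPKM at 72hpf. Hatching gland genes had medians of 4.90 and -31.1 over 5 ranked genes, of which 4 lie at shared loci. The gene with a locus of its own, *klf17*, had shifts of 6.19 and -0.581. The hatching enzyme genes *he1a* and *he1b*, listed at the same locus, had shifts of 4.90 and 0.764 in siblings and -62.4 and -58.8 in mutant-labelled eyes. At 36hpf they had 43 and 14 reads in sibling and 8073 and 3431 reads in mutant-labelled eyes. The 36hpf libraries thus differed in hatching gland transcripts.

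The Notch target *her4.1* had a shift of -27.6 in siblings and 14.4 in mutant-labelled eyes, from 3148 and 1181 reads to 3.71 and 12.1 FPKM. It lies in a cluster of near-identical *her4* copies, so its share of their reads is uncertain. The keratin *krt92* had -25.05 and 1.64, and the embryonic globin *hbbe3* had -28.02 and 5.40, from 4350 and 8766 reads to 4.63 and 70.9 FPKM.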

How the results depend on the processing

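The genes with the largest rises and falls kept their direction and their call under every alternative that gave them a value. List medians near 0 (Müller glia, chromatin, mesenchyme, red blood cells, progenitors, ribosomal proteins and splicing) changed sign under at least 1 alternative, none with a call. The median of ganglion cell genes was 29.7 with genes of low value left out and 25.8 with the locus-length correction, past the threshold of 25 points. The medians of photoreceptor transcription factors, inhibitory transmission and synaptic genes were short of 40 points. At a threshold of 40 points the rises and falls were 865 and 312 in sibling eyes and 612 and 249 in mutant-labelled eyes. Over genes with a locus of their own, ranked again, sibling falls were 963, and mutant-labelled rises and falls were 1124 and 624, with fewer genes ranked. With the median of 10 locus-length bins taken from each shift, falls were 733 in sibling and 441 in mutant-labelled eyes over the same genes. Both of these were chosen after seeing the data, and locus length is not transcript length. All other counts of rises and falls were within 1.5 times the values reported. No paired analysis was possible because each group is 1 sample, and for the same reason no sample could be left out. The alternatives with coding length were not run, since no lengths were at hand. Depth limits the 36hpf rank of genes with few reads, the 72hpf table carries no depth for either library, and stage cannot be told apart from run, pipeline and unit.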

Other observations

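Several genes among the largest shifts belong to none of the lists and were not described with them. *VAMP1 (2 of 2)*, a vesicle fusion protein gene, had 0 reads at 36hpf and 28.3 FPKM at 72hpf in sibling eyes, and *hs3st3l*, a heparan sulfate sulfotransferase gene, 1 and 33.1. Both lie at shared loci and rose in siblings, with shifts of 88.01 and 86.2 beside 59.9 and 53.9 in mutant-labelled eyes. The leucine-rich repeat gene *lrit2* had 0 reads and 15.96 FPKM (0 and 1.68 in mutant-labelled eyes).

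Among the highest genes of the 36hpf eyes, the cold-inducible RNA-binding protein gene *cirbpb* had 418706 reads and then 1629 FPKM, and the nucleosome-binding protein gene *hmgn2* 391360 reads and then 1328 FPKM. They stood at percentiles of 99.8 and 99.8 at 72hpf, still near the top. Among the falls with a locus of their own, *prtgb*, a protogenin adhesion gene, had 6092 reads and 2.23 FPKM (9922 and 4.52 in mutant-labelled eyes), and *rttn*, a centriole gene, 4792 and 1.89 (5063 and 3.40).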
